A study of Homo sapiens with 12 samples.

Results

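Lysosomal enzymes and membrane proteins were followed by their RNA in prostate cancer cells with less or more GALNT7. They form a list of 44 genes: 14 proteases, of which 12 are cathepsins, 10 glycosidases, 6 sulfatases and other hydrolases, 7 genes of lipid handling, 5 membrane proteins and 2 regulators. The list was chosen by function, with earlier results of these data known, and matched by symbol to the Ensembl identifiers of both tables, which hold 59424 genes each. A row was found for 43 of the 44 genes, and the RNA of NEU1 was not analysed here. GALNT7 encodes a Golgi enzyme that adds the first sugar of O-linked chains to proteins. The paper describes it as acting only on proteins that already carry such sugars from related enzymes. CWR22RV1 cells, a prostate cancer line, carried a lentiviral control shRNA (shControl) or a lentiviral shRNA against GALNT7 (GALNT7 KD). DU145 cells, another prostate cancer line, carried a lentiviral control open reading frame (OE control) or a GALNT7 open reading frame (GALNT7 OE). All 4 groups were stable lines made by transduction, with 3 biological replicates each, so that the controls had also been transduced.

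The lysosome is the acidic compartment in which proteins, lipids and sugar chains are broken down. Most of its soluble enzymes pass through the Golgi, receive a mannose 6-phosphate tag there and are sorted by receptors to the lysosome, where a proton pump (V-ATPase) keeps the lumen acidic. Many genes of the compartment carry a short palindrome near their start, bound by TFEB and its relatives, which raise their transcription.

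CWR22RV1 libraries had 18364512 to 22264533 recovered reads and DU145 libraries 21628718 to 24356910. Values are normalised counts, and since each line had its own scaling, no level is set against one of the other line. Differences were tested with limma on log2(normalised count + 1), with Benjamini-Hochberg adjustment over all genes tested and a threshold of 0.05, a scale on which changes at low counts appear smaller than they are. The GALNT7 normalised count was 862, 1042 and 1093 in shControl cells and 481, 501 and 399.7 in GALNT7 KD cells (log2 fold change -1.11, SE 0.129, limma adjusted p=0.0051). In DU145 it was 1051, 928 and 913 in the OE control and 1988, 2221 and 2334 in GALNT7 OE cells (log2 fold change 1.18, SE 0.0863, limma adjusted p=8.0e-05), so that in both lines GALNT7 moved as the labels say without overlap of the groups. The epithelial markers EPCAM, KRT8, KRT18 and CDH1 were present in all libraries. Their summed normalised counts lay between 22416 and 22860 for shControl and between 20827 and 21545 for GALNT7 KD, without overlap, with EPCAM (log2 fold change -0.71) and KRT18 (-0.35, on chromosome 12) lower. In DU145 the sums lay between 24152 and 25908 for the OE control and between 22524 and 24877 for GALNT7 OE, with EPCAM higher (0.62) and CDH1 lower (-0.58). Their part in the lysosomal changes was not tested.

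To show what the starts of these genes look like, stretches of 80 bases were read from RefSeq promoter windows on GRCh38.p14, each window running from 250 bases before to 50 bases after the annotated start. A window was found for 30 of the 44 genes. The palindrome searched was CACGTG, the core of the TFEB site, which reads the same on both strands and lies inside the longer form TCACGTGA. It was in the windows of 9 of the 30 genes (ARSB, CD63, CTSA, CTSD, CTSF, GAA, LAMP1, MCOLN1 and NEU1), and in 8.77% of all 27305 genes with a window. TCACGTGA was in 4 of the 30 (CTSA, GAA, LAMP1 and MCOLN1) and in 1.18% of all genes. Stretches are printed for 6 genes with CACGTG, in capitals, at chr20:45891273-45891352 (plus strand), chr11:1763932-1764011 (minus), chr11:66568615-66568694 (minus), chr17:80101513-80101592 (plus), chr13:113297043-113297122 (plus) and chr19:7522573-7522652 (plus), each printed 5′ to 3′ on the strand of its gene.
CTSA: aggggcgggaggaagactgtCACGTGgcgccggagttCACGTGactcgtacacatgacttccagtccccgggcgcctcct
CTSD: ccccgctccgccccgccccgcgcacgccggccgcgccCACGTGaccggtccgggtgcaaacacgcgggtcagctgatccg
CTSF: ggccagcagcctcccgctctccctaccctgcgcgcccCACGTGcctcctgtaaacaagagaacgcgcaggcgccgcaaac
GAA: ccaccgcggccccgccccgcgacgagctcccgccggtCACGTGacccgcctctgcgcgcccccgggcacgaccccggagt
LAMP1: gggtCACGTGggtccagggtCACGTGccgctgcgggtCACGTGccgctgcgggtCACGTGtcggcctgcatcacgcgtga
MCOLN1: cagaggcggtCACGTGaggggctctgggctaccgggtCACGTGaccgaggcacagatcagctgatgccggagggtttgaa

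LAMP1 had 6 copies of CACGTG in its window, 4 of them in the printed stretch, and CTSA, CTSF, GAA and MCOLN1 had 2 each. The 4 genes that rose in GALNT7 OE cells had none in their windows, which is the usual case, since 8.77% of all genes with a window had it. Their stretches at chr9:87726079-87726158 (plus), chr9:97039103-97039182 (minus), chrX:101407886-101407965 (minus) and chr1:40097213-40097292 (minus) are shown with the first 5 bases from the annotated start in capitals.
CTSL: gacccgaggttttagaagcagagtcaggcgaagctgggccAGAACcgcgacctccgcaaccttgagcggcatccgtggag
CTSV: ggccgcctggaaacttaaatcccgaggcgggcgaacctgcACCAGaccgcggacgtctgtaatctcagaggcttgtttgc
GLA: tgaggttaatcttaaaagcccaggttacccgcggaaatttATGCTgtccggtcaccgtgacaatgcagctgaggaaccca
PPT1: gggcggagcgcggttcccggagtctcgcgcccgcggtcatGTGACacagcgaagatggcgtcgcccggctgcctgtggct

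Of the genes with a window that were tested, which leaves out NEU1, 8 had the palindrome and 21 did not. Of the 8, 5 fell in GALNT7 OE cells, 0 rose and 3 did not pass the threshold, with a median log2 fold change of -0.78, and of the 21 without it 13 fell, 4 rose and 4 did not pass, with a median of -0.41. Of the 8, 0 rose in GALNT7 KD cells, and 7 of the 21 did, with medians of 0.05 and 0.34. Over all genes tested, 20.5% were lower and 22.9% higher in GALNT7 OE cells and 5.28% higher in GALNT7 KD cells, so that 0 of 8 in GALNT7 KD cells is near the background. These counts describe letters in a window and no binding was measured.

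Most of the list was lower in GALNT7 OE cells. Of 43 genes tested, 32 fell (74.4%), 4 rose and 7 did not pass the threshold, and the median log2 fold change was -0.55, beside -0.01 over all 18705 genes tested. The background was 43.5% of all genes called, 20.5% lower and 22.9% higher. In 36 of the 43 the libraries of the groups did not overlap, with 32 lower and 4 higher, beside 55.3% of all genes, 27.1% lower and 28.2% higher. Together the 43 genes took 1.51% to 1.54% of all normalised counts in OE control libraries and 0.713% to 0.718% in GALNT7 OE libraries, so the 6 libraries fell into separate ranges. In bulk RNA, fewer cells that make a transcript and less of it per cell cannot be told apart. All 32 genes passed in each of the 15 alternative analyses of this line. With rescaling to the 75th percentile, which moved the median of all genes by -0.13 and the split of all calls from 4290 higher and 3842 lower to 3095 higher and 5062 lower, 35 members were lower and 3 higher.

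**Figure D1:**
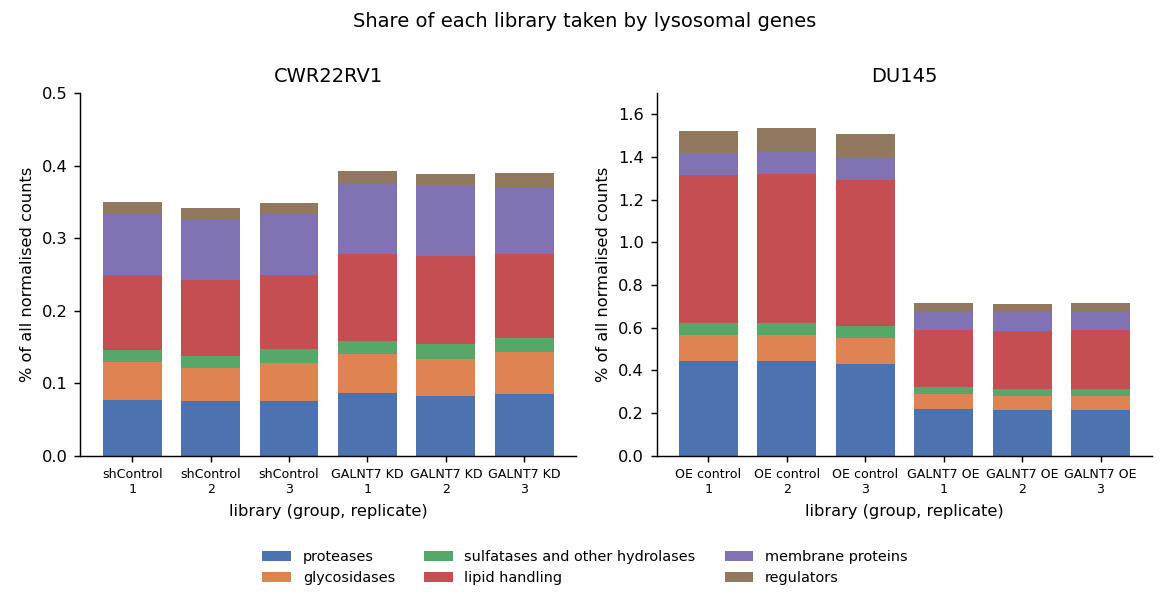
Percentage of all normalised counts taken by the 43 lysosomal genes in each library, with the groups of genes stacked, on axes that start at 0 and differ between the lines. GALNT7 OE libraries sit at 0.713% to 0.718% against 1.51% to 1.54% in the OE control, and GALNT7 KD libraries at 0.388% to 0.392% against 0.341% to 0.350% in shControl.

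CTSB, CTSC, CTSL, CTSZ, GLA, IDS, PSAP, LIPA and SCARB2 rose in GALNT7 KD cells. Of 42 genes tested, 9 rose (21.4%), 0 fell and 33 did not pass the threshold, beside a background of 9.06% called among 17906 genes, 5.28% higher and 3.79% lower. Their median log2 fold change was 0.13, beside -0.01 over all genes. The groups did not overlap in 19 of the 42, with 14 higher and 5 lower, beside 32.5% of all genes, 16.9% higher and 15.6% lower. At an unadjusted limma p under 0.05, 13 genes were higher and 2 lower. By DESeq2 on the recovered reads 11 were higher, the 9 with CTSV (adjusted p=0.016) and FUCA1 (0.043). DESeq2 called 1 lower (CTSD, log2 fold change -0.29, adjusted p=0.044), while edgeR called 9 higher and 0 lower. The share of a library taken by the 43 genes with a row was 0.341% to 0.350% in shControl and 0.388% to 0.392% in GALNT7 KD. The count of 9 rested on single libraries, since it was 3 without GALNT7 KD replicate 1 and 4 without shControl replicate 1 or 3, and it was 5 with eBayes without a trend. Rescaling to the 75th percentile moved the median of all genes by -0.09 and the split of all calls from 945 higher and 678 lower to 656 higher and 1231 lower, with 8 members higher and 0 lower.

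**Figure D2:**
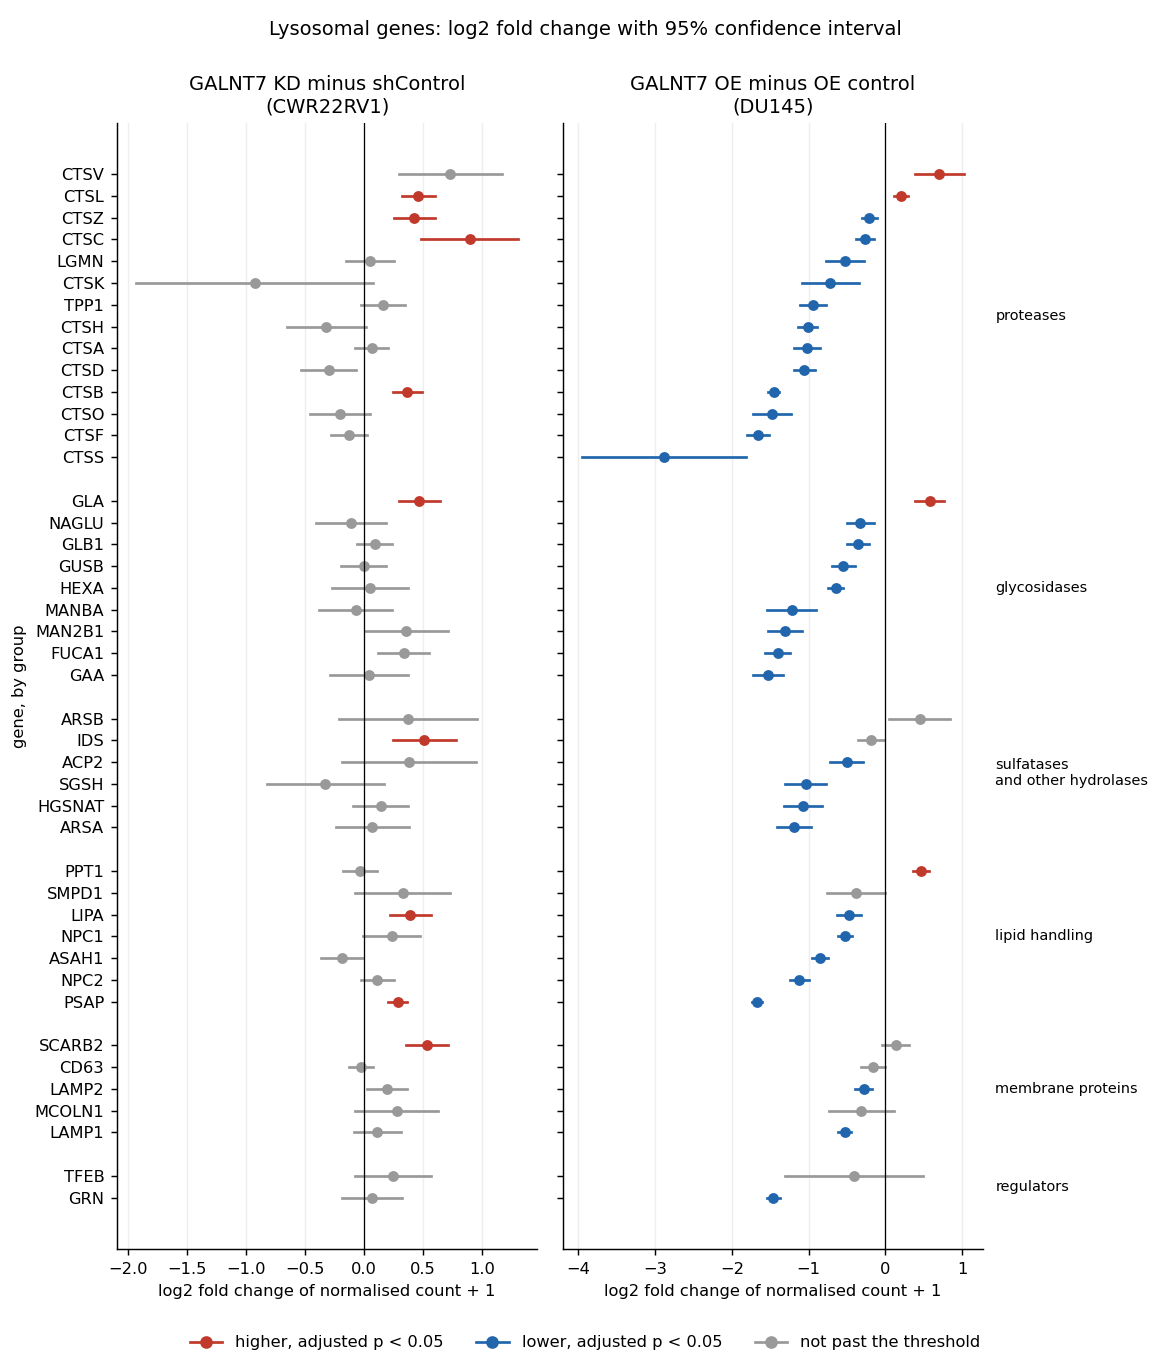
Log2 fold change (points) and 95% confidence interval (lines) of each lysosomal gene in GALNT7 KD against shControl (left) and in GALNT7 OE against OE control (right), 3 libraries a group, with different horizontal scales. In the right panel 32 genes lie below 0 past the threshold and 4 above it, and in the left panel 9 lie above it. CTSS was not tested on the left.

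A total of 42 genes were tested in both comparisons, and 7 passed the threshold in both (CTSB, CTSC, CTSZ, PSAP, LIPA, CTSL and GLA), 16.7%, beside 5.48% of 16124 genes tested in both. For 5 of them, CTSB, CTSC, CTSZ, PSAP and LIPA, GALNT7 KD cells were higher and GALNT7 OE cells lower, 11.9% beside 1.58% of all genes. CTSL and GLA were higher in both, 4.76% beside 1.72%. IDS and SCARB2 passed in GALNT7 KD cells but not in GALNT7 OE cells, and 5 genes passed in neither. The difference between the comparisons was not tested, since the cell lines were scaled separately.

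The cathepsins do most of the protein breakdown in lysosomes. Of the 12, 10 fell and 2 rose in GALNT7 OE cells (median log2 fold change -1.02), and with LGMN and TPP1 the proteases counted 12 lower and 2 higher (median -0.98). All genes tested counted 20.5% lower and 22.9% higher. CTSB (ENSG00000164733), an abundant cysteine cathepsin, had normalised counts of 41857, 42326 and 40350 in the OE control and 14989, 15315 and 15027 in GALNT7 OE cells. The groups lay far apart, a fall of 2.75-fold (log2 fold change -1.46, SE 0.0289, limma adjusted p=8.0e-07). In CWR22RV1 the CTSB normalised counts were 2618, 2707 and 2733 in shControl and 3481, 3320 and 3603 in GALNT7 KD cells. Each GALNT7 KD library was above each control library (log2 fold change 0.37, SE 0.0514, limma adjusted p=0.0098), and without GALNT7 KD replicate 1 the adjusted p was 0.0502.

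CTSC (ENSG00000109861, chr11:88293592-88337787 on the minus strand of GRCh38), the dipeptidyl peptidase that activates serine proteases of immune cells, had the largest rise of the list in GALNT7 KD cells. Its normalised counts were 119, 175 and 162 in shControl and 297, 299.7 and 248 in GALNT7 KD cells, without overlap (1.85-fold, log2 fold change 0.90, SE 0.173, limma adjusted p=0.026). It did not pass without shControl replicate 1 or 3 (adjusted p=0.059 and 0.066) or GALNT7 KD replicate 1 or 2 (0.095 and 0.075). In DU145 the CTSC normalised counts were 2409, 2398 and 2293 in the OE control and 2002, 1921 and 1972 in GALNT7 OE cells. The fall was small but clear of the spread (log2 fold change -0.27, SE 0.0484, limma adjusted p=0.0042).

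CTSZ (ENSG00000101160, chr20:58995185-59007247, minus strand), a carboxypeptidase, followed the same course. Normalised counts of CTSZ were 1414, 1361 and 1279 in shControl and 1776, 1727 and 1950 in GALNT7 KD cells (log2 fold change 0.43, SE 0.0724, limma adjusted p=0.018). They were 3847, 3738 and 3813 in the OE control and 3335, 3201 and 3300 in GALNT7 OE cells (log2 fold change -0.21, SE 0.0411, limma adjusted p=0.0057). The groups did not overlap in either line. The rise of CTSZ in GALNT7 KD cells passed with GALNT7 KD replicate 2 or 3 left out, and missed the threshold without GALNT7 KD replicate 1 (adjusted p=0.064) or any 1 of the shControl libraries (0.052 to 0.064).

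CTSL and CTSV, close relatives among the cysteine cathepsins whose reads a counter could partly share, were the only cathepsins that rose in GALNT7 OE cells. CTSL (ENSG00000135047, chr9:87725519-87731393, plus strand) had normalised counts of 5720, 5719 and 5618 in the OE control and 6708, 6515 and 6378 in GALNT7 OE cells. All GALNT7 OE libraries were higher (1.15-fold, log2 fold change 0.20, SE 0.037, limma adjusted p=0.0047), but with rescaling to the 75th percentile the log2 fold change was 0.07 (adjusted p=0.24), still 0.21 above the median of all genes. In CWR22RV1 the CTSL normalised counts were 1562, 1515 and 1583 in shControl and 2246, 2136 and 2035 in GALNT7 KD cells. That rise (1.38-fold, log2 fold change 0.46, SE 0.0595, limma adjusted p=0.0077) passed under all 17 alternatives. CTSV rose in GALNT7 OE cells from a mean normalised count of 321 ± 30.5 to 525 ± 79.4 (SD, n=3; log2 fold change 0.70, limma adjusted p=0.0052). CTSV in GALNT7 KD cells had 179 ± 45.9 and 292 ± 11.6 (SD, n=3), did not overlap and missed the threshold (log2 fold change 0.73, limma adjusted p=0.055), which it passed without shControl replicate 2 (adjusted p=0.02).

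The largest falls among the proteases were those of CTSS, CTSF and CTSO. CTSS, an elastinolytic cathepsin used in antigen presentation, had normalised counts of 69.7, 86.9 and 85.6 in the OE control and 5.01, 20.3 and 9.44 in GALNT7 OE cells (log2 fold change -2.88, SE 0.452, limma adjusted p=0.0023). These are few reads, and the GALNT7 OE libraries differ widely among themselves. In CWR22RV1 it stayed below the minimum mean of 5 and was not tested. CTSF, a cysteine cathepsin, had normalised counts of 4101, 3957 and 4009 in the OE control and 1200, 1251 and 1359 in GALNT7 OE cells, a fall of 3.17-fold (log2 fold change -1.66, SE 0.0598, limma adjusted p=4.8e-06). CTSO had 287, 287 and 288 normalised counts in the OE control and 98.2, 98.9 and 111 in GALNT7 OE cells (log2 fold change -1.48, SE 0.105, limma adjusted p=7.2e-05). None of the control libraries of these genes came near a GALNT7 OE library.

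The other proteases that fell had log2 fold changes from -1.06 to -0.53. They were CTSD, the main aspartic protease of the lysosome (mean normalised count 15855 ± 298 and 7644 ± 580.2, SD, n=3, log2 fold change -1.06), CTSA, the protective protein of galactosidase and sialidase (-1.02), CTSH (-1.01), TPP1, a tripeptidase (-0.94), CTSK, a collagen-cleaving cathepsin (-0.72), and LGMN, an asparagine-specific protease (-0.53). None of these passed in GALNT7 KD cells. CTSD had the log2 fold change -0.30 (limma adjusted p=0.11) without overlap of the groups, and CTSK, at a mean normalised count of 13.2 ± 5.82 in shControl, had -0.93 (adjusted p=0.22).

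**Figure D3:**
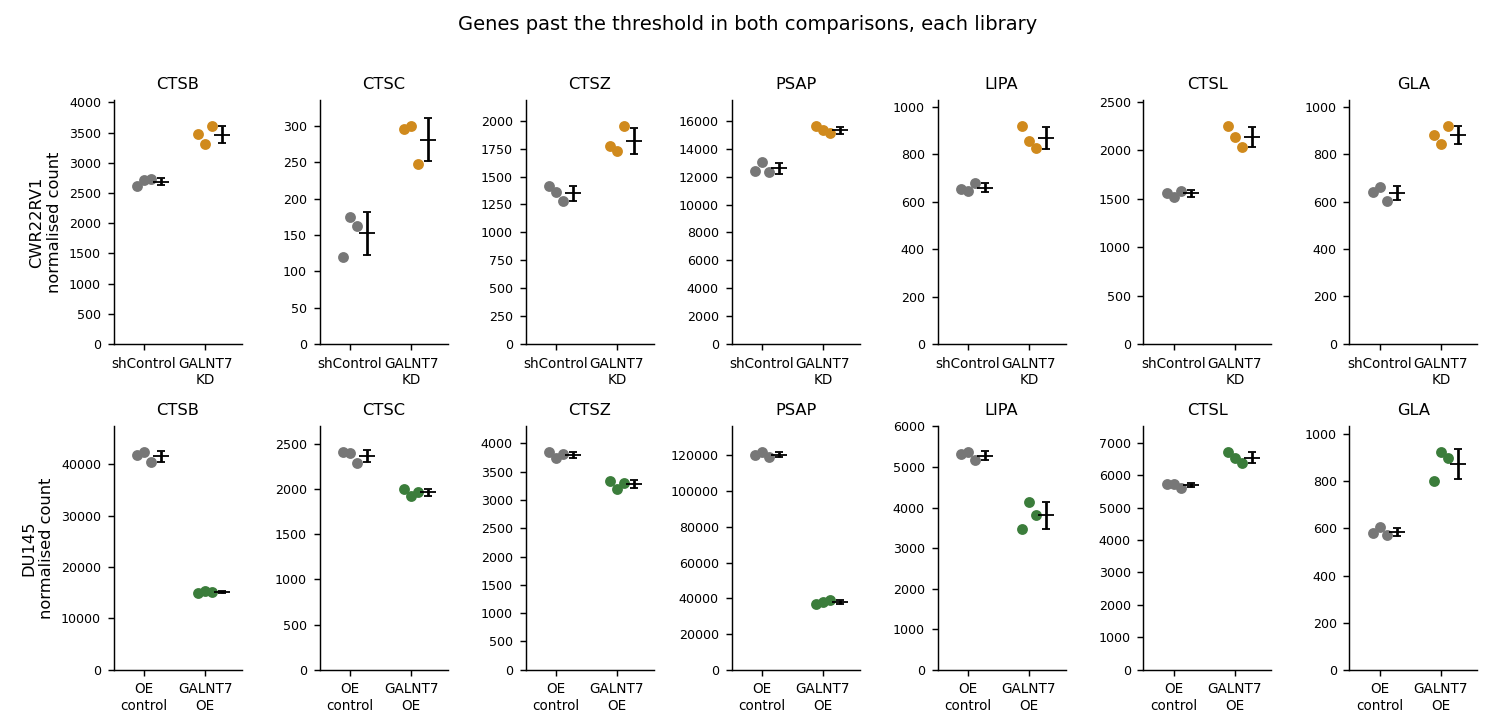
Normalised count in each library (points) with mean ± SD beside them for the 7 genes that passed in both comparisons, CWR22RV1 above and DU145 below, on axes that start at 0. CTSB, CTSC, CTSZ, PSAP and LIPA lie higher in GALNT7 KD and lower in GALNT7 OE, and CTSL and GLA lie higher in both.

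Among the genes of lipid handling, PSAP stood out by its level. PSAP (ENSG00000197746, chr10:71816298-71851375, minus strand) encodes the precursor of the saposins, small activators that lift sphingolipids toward their hydrolases. Its normalised counts were 120363, 121787 and 119007 in the OE control and 36842, 37689 and 38798 in GALNT7 OE cells. This fall of 3.19-fold (log2 fold change -1.67, SE 0.0256, limma adjusted p=3.4e-07) far exceeded the SDs of the groups, 1390 and 981. PSAP ranked 3 among all genes by mean normalised count in the OE control and 180 in shControl. It held 35.5% to 35.9% of the list's normalised counts in the OE control and 22.8% to 23.8% in GALNT7 OE cells. In CWR22RV1 the PSAP normalised counts were 12439, 13032 and 12329 in shControl and 15613, 15319 and 15112 in GALNT7 KD cells (1.22-fold, log2 fold change 0.28, SE 0.035, limma adjusted p=0.0066), also without overlap. It kept its call with each library left out and lost it with eBayes without a trend (adjusted p=0.072).

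LIPA (ENSG00000107798, chr10:89213569-89414557, minus strand), the acid lipase that frees cholesterol from its esters, moved in the same directions. Normalised counts of LIPA were 655, 644 and 681 in shControl and 918, 857 and 827 in GALNT7 KD cells (log2 fold change 0.39, SE 0.0737, limma adjusted p=0.024). They were 5314, 5366 and 5162 in the OE control and 3472, 4133 and 3815 in GALNT7 OE cells (log2 fold change -0.48, SE 0.067, limma adjusted p=0.0014). Neither line showed an overlap, although the rise in GALNT7 KD cells passed only with all libraries or without GALNT7 KD replicate 3, and had adjusted p of 0.057 to 0.09 without each of the other 5.

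In all, 5 of the 7 genes of lipid handling fell in GALNT7 OE cells (median log2 fold change -0.53) and 2 rose in GALNT7 KD cells (median 0.24). Beside these stand 20.5% of all genes lower in GALNT7 OE cells and 5.28% higher in GALNT7 KD cells. NPC2, which passes cholesterol to NPC1, had normalised counts of 4121, 4344 and 4038 in the OE control and 1900, 1861 and 1989 in GALNT7 OE cells (log2 fold change -1.12, SE 0.0514, limma adjusted p=1.1e-05). ASAH1, acid ceramidase, had 5808, 5779 and 5720 in the OE control and 3303, 3091 and 3194 in GALNT7 OE cells (log2 fold change -0.85, SE 0.0418, limma adjusted p=1.5e-05). NPC1, the membrane partner in cholesterol export, fell by 0.53 on the log2 scale. PPT1, which removes fatty acids from proteins, rose instead, from 3428 ± 22.1 to 4735 ± 195 (SD, n=3, log2 fold change 0.47, limma adjusted p=0.00026). SMPD1, acid sphingomyelinase, had the log2 fold change -0.38 (adjusted p=0.093). It passed without GALNT7 OE replicate 2 (-0.56, adjusted p=0.011) and with rescaling to the 75th percentile (-0.52, adjusted p=0.037).

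Glycosidases, which trim sugars from glycoproteins and glycolipids, fell in 8 of 9 cases in GALNT7 OE cells, beside 20.5% of all genes, and GLA rose (median log2 fold change -0.65). GLA (ENSG00000102393, chrX:101397803-101408012, minus strand) is alpha-galactosidase A, the enzyme missing in Fabry disease. Its normalised counts were 579, 604 and 572 in the OE control and 799.8, 924 and 898 in GALNT7 OE cells (1.49-fold, log2 fold change 0.58, SE 0.0791, limma adjusted p=0.0013). In CWR22RV1 they were 639, 662 and 604 in shControl and 881, 845 and 917 in GALNT7 KD cells (1.39-fold, log2 fold change 0.47, SE 0.0742, limma adjusted p=0.014). GLA was thus higher in every GALNT7 KD and every GALNT7 OE library than in any library of its own control. The call in GALNT7 KD cells was lost without shControl replicate 1 or 3 (adjusted p=0.058 and 0.056) or GALNT7 KD replicate 1 (0.062).

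GAA, the acid glucosidase of glycogen breakdown, fell most among the glycosidases. It had normalised counts of 7427, 7377 and 6782 in the OE control and 2778, 2278 and 2441 in GALNT7 OE cells, a fall of 2.88-fold (log2 fold change -1.53, SE 0.0801, limma adjusted p=2.0e-05). FUCA1, a fucosidase, had 1215, 1252 and 1145 in the OE control and 465, 443 and 455 in GALNT7 OE cells (log2 fold change -1.40, SE 0.0677, limma adjusted p=1.4e-05). MAN2B1, a mannosidase of N-glycan breakdown, had 5421, 5107 and 5074 in the OE control and 2370, 1832 and 2117 in GALNT7 OE cells (log2 fold change -1.31, SE 0.0935, limma adjusted p=7.1e-05). The control libraries were all above the GALNT7 OE libraries for these 3 enzymes. MANBA, another mannosidase (-1.22), HEXA, a subunit of hexosaminidase (-0.65), GUSB, the glucuronidase (-0.55), GLB1, the galactosidase of gangliosides and keratan sulfate (-0.35), and NAGLU, an enzyme of heparan sulfate breakdown (-0.33), completed the log2 falls. Besides GLA, no glycosidase passed in GALNT7 KD cells (median 0.05 over 9), where FUCA1 had 0.34 (adjusted p=0.067) and MAN2B1 0.36 (adjusted p=0.19). Among the alternatives, FUCA1 passed by DESeq2 (adjusted p=0.043) and MAN2B1 by limma with a replicate block (adjusted p=0.047). With 11.1% called, the glycosidases were near the background of 9.06% in that line.

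Of the sulfatases and other hydrolases, 4 of 6 fell in GALNT7 OE cells, beside 20.5% of all genes (median log2 fold change -0.77). ARSA, the sulfatase of sulfated glycolipids, had normalised counts of 1308, 1149 and 1181 in the OE control and 576, 537 and 480.4 in GALNT7 OE cells (log2 fold change -1.19, SE 0.0926, limma adjusted p=0.0001). HGSNAT, an acetyltransferase of heparan sulfate breakdown in the lysosomal membrane, had 3487, 3214 and 3841 in the OE control and 1580, 1910 and 1536 in GALNT7 OE cells (log2 fold change -1.07, SE 0.103, limma adjusted p=0.00026). SGSH, a sulfatase of the same route, had 2854, 3013 and 3007 in the OE control and 1716, 1254 and 1392 in GALNT7 OE cells (log2 fold change -1.04, SE 0.112, limma adjusted p=0.00043). For each of the 3 the groups were well apart. ACP2, an acid phosphatase, fell by 0.51 on the log2 scale. ARSB, which desulfates dermatan sulfate, had 0.45 (adjusted p=0.068), and passed without OE control replicate 3 (0.57, adjusted p=0.037).

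IDS, the sulfatase of iduronate in heparan and dermatan sulfate, was the member of that group that rose in GALNT7 KD cells. Normalised counts of IDS were 672, 782 and 684 in shControl and 1009, 1148 and 901 in GALNT7 KD cells (1.43-fold, log2 fold change 0.51, SE 0.112, limma adjusted p=0.038). The groups did not overlap, but the call held with GALNT7 KD replicate 3 left out and was lost without any 1 of the other 5 libraries (adjusted p=0.056 to 0.12). IDS in GALNT7 OE cells had the log2 fold change -0.19 (adjusted p=0.072), and passed without GALNT7 OE replicate 3 (-0.26, adjusted p=0.014). It also passed as lower with rescaling to the 75th percentile (-0.32, adjusted p=0.0072) and with quantile normalisation (-0.29, adjusted p=0.016).

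The membrane proteins moved least in GALNT7 OE cells, with 2 of 5 lower and a median log2 fold change of -0.29. Over all genes 20.5% were lower and 43.5% were called in either direction. With 2 of 5 called, this group was near the background of calls. LAMP1, a main glycoprotein of the lysosomal membrane, had normalised counts of 8152, 8428 and 8378 in the OE control and 5891, 5754 and 5648 in GALNT7 OE cells (log2 fold change -0.53, SE 0.0361, limma adjusted p=5.8e-05). LAMP2, its relative that also serves autophagy, had 3145, 3194 and 3316 in the OE control and 2553, 2693 and 2675 in GALNT7 OE cells (log2 fold change -0.29, SE 0.0471, limma adjusted p=0.0029). Both were lower in every GALNT7 OE library. The tetraspanin CD63 (-0.16, adjusted p=0.086), the calcium channel MCOLN1 (-0.31, adjusted p=0.2) and SCARB2 (0.13, adjusted p=0.2) did not pass. CD63 passed without GALNT7 OE replicate 3 (-0.21, adjusted p=0.039), and SCARB2 without OE control replicate 3 (0.21, adjusted p=0.028). CD63 also passed with rescaling to the 75th percentile (-0.29, adjusted p=0.0055) and quantile normalisation (-0.24, adjusted p=0.025). With rescaling to the 75th percentile SCARB2 had an adjusted p of 0.98.

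SCARB2, also called LIMP-2, is a sorting receptor of the lysosomal membrane and was the membrane protein that rose in GALNT7 KD cells. Its normalised counts were 3919, 3833 and 4203 in shControl and 5939, 6188 and 5201 in GALNT7 KD cells (1.45-fold, log2 fold change 0.53, SE 0.0752, limma adjusted p=0.01). All GALNT7 KD libraries were above all shControl libraries, and it passed under all 17 alternatives, as CTSL did and no other member in that line. LAMP2 had 0.19 (adjusted p=0.15), and passed without GALNT7 KD replicate 3 (0.26, adjusted p=0.045). CD63 had -0.02 (adjusted p=0.76), on chromosome 12, of whose 922 genes tested 202 were lower and 19 higher in GALNT7 KD cells (median -0.28).

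Of the regulators, GRN fell and TFEB did not pass. GRN encodes progranulin, which is cut into granulins in the lysosome and binds prosaposin. GRN had normalised counts of 23621, 23825 and 23295 in the OE control and 8824, 8260 and 8631 in GALNT7 OE cells, a fall of 2.75-fold (log2 fold change -1.46, SE 0.0347, limma adjusted p=1.6e-06). The groups stood wide apart, whereas in CWR22RV1 the log2 fold change of GRN was 0.07 (adjusted p=0.74) and the groups overlapped. TFEB, the transcription factor, had mean normalised counts of 190 ± 57.8 and 150.2 ± 68.4 in DU145 (SD, n=3, log2 fold change -0.41, 95% confidence interval -1.30 to 0.49, adjusted p=0.42). In CWR22RV1 TFEB had 400.4 ± 36.3 and 478 ± 75.8 (log2 fold change 0.25, 95% confidence interval -0.07 to 0.57, adjusted p=0.3).

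Per kilobase of exon, PSAP had the highest level of the list in both lines. The length was that of all annotated exons of a gene merged, such as 3239 bases for PSAP and 19341 for SCARB2. It can exceed the length of the transcripts present, so the order below depends on the annotation, which the SDs do not cover. In the OE control it had 37168 ± 429 normalised counts per kb (SD, n=3), followed by GRN with 6408 ± 72.6, CTSB with 5588 ± 139, CTSD with 5072 ± 95.4 and CTSL with 2403 ± 24.7, and these neighbours lay further apart than their SDs. In GALNT7 OE cells PSAP had 11663 ± 303, CTSL 2762 ± 70.0, CTSD 2445 ± 186, GRN 2329 ± 77.8 and CTSB 2034 ± 24.0 normalised counts per kb, so that CTSL now came after PSAP and CTSD and GRN were within their SDs of each other. In shControl the order was PSAP (3890 ± 117), CD63 (2871 ± 94.0), CTSD (785 ± 31.0) and GRN (746 ± 47.2 normalised counts per kb), of which CTSD and GRN were within their SDs.

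**Figure D4:**
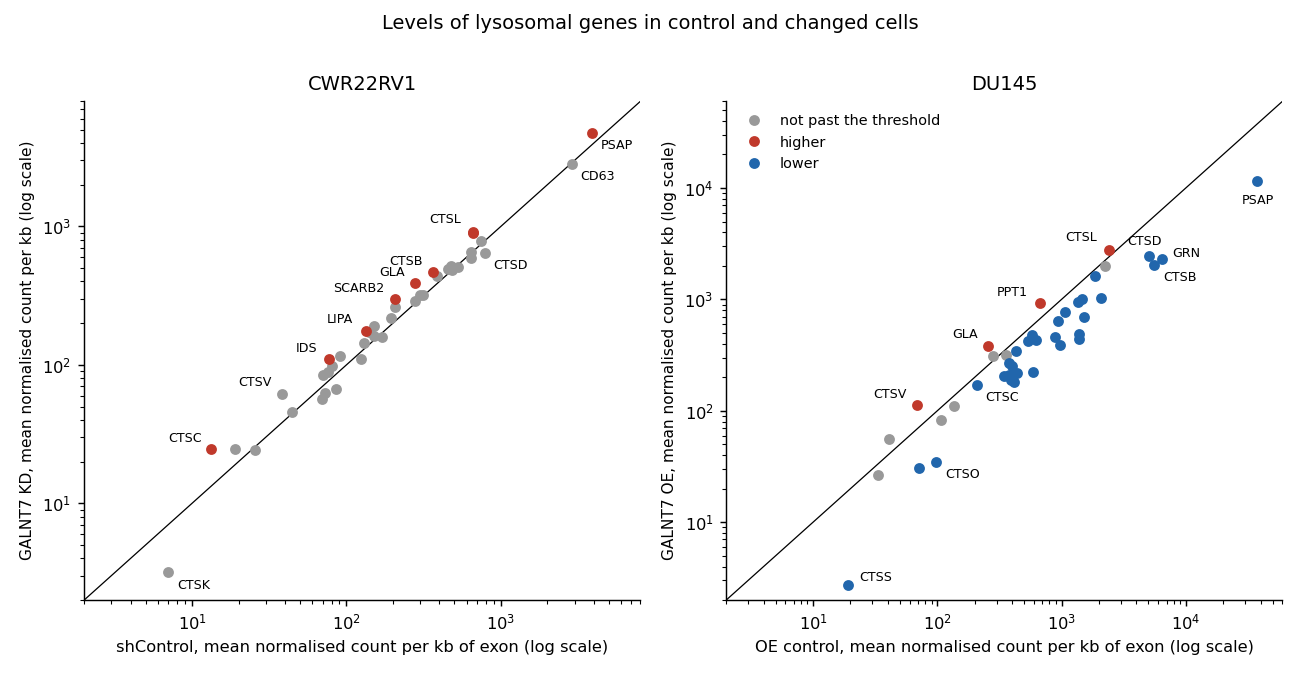
Mean normalised count per kb of exon in the control (horizontal) and in the changed cells (vertical) for each lysosomal gene tested, CWR22RV1 left and DU145 right, on log scales, with the line of equal levels. In DU145 most points lie below the line, with PSAP at 37168 and 11663, and CTSL, CTSV, GLA and PPT1 lie above it.

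The other genes of the lysosome were taken from 6 lists of 86 genes that do not share members with the 44. These lists too were chosen with earlier results of these data known. Of the 80 tested in GALNT7 OE cells, 33 fell (41.3%) and 9 rose (11.3%), beside 20.5% lower and 22.9% higher over all genes, and the median log2 fold change was -0.18. In GALNT7 KD cells 8 of 78 rose and 2 fell (12.8% called, beside 9.06% over all genes, median 0.07). By list, the other hydrolases and activators counted in GALNT7 OE cells 10 lower and 2 higher of 18 (median -0.26), the other membrane proteins 8 and 2 of 17 (-0.31), the genes of mannose 6-phosphate tagging and sorting 5 and 0 of 10 (-0.39), and V-ATPase subunits 5 and 2 of 16 (-0.08). TFE factors and their nutrient control counted 3 lower and 3 higher of 16 (0.00), and cystatins, the inhibitors of cathepsins, 2 lower of 3. The V-ATPase subunits, with 43.8% called, were at the background of 43.5%, and the TFE list, with 37.5%, was below it. In GALNT7 KD cells the other hydrolases had the most calls, 4 higher of 18 (median 0.21), and the other lists had 1 or 2 calls each.

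GNPTG, a subunit of the enzyme that starts the mannose 6-phosphate tag, moved in opposite directions. Its normalised counts were 300.5, 262 and 277 in shControl and 415, 458 and 493 in GALNT7 KD cells (log2 fold change 0.70, SE 0.106, limma adjusted p=0.012). They were 1097, 1136 and 1121 in the OE control and 379, 429 and 471 in GALNT7 OE cells (log2 fold change -1.39, SE 0.0926, limma adjusted p=5.2e-05), with no overlap in either line. RRAGD, a GTPase of nutrient signalling, had 0.37 and -0.52 on the log2 scale in GALNT7 KD and GALNT7 OE cells. GGH, which trims folates (0.53 and 0.45), and LAPTM4B, a membrane protein (0.21 and 0.33), rose in both. ATP6V0A2, a subunit of the proton pump, had -0.47 and 0.42, and lies on chromosome 12, where the median over 922 genes was -0.28 in GALNT7 KD cells. CST3, cystatin C, fell in both (-0.48 and -0.40). Of these 6 genes, GNPTG and CST3 passed under every alternative in both lines, while in GALNT7 KD cells LAPTM4B passed in 7, RRAGD and ATP6V0A2 in 11 and GGH in 15 of the 17 alternatives. RRAGD in GALNT7 OE cells passed in 10 of the 15. Leaving out 1 library at a time gave adjusted p of up to 0.14 for LAPTM4B and 0.097 for ATP6V0A2 in GALNT7 KD cells, and of up to 0.11 for RRAGD in GALNT7 OE cells.

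ATP6V0B, a pump subunit, had the largest change of its list in GALNT7 KD cells (log2 fold change 0.47, limma adjusted p=0.0048). The largest of each list in GALNT7 OE cells were ATP6AP1, an accessory subunit of the pump (-0.60), GNPTG (-1.39), IDUA, the iduronidase (-1.72), CD68, a membrane glycoprotein common in macrophages (-1.37), FLCN, a regulator of nutrient signalling (-0.87), and CST3 (-0.40). FLCN lost its call without OE control replicate 2 or 3 (adjusted p=0.056 and 0.076).

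**Figure D5:**
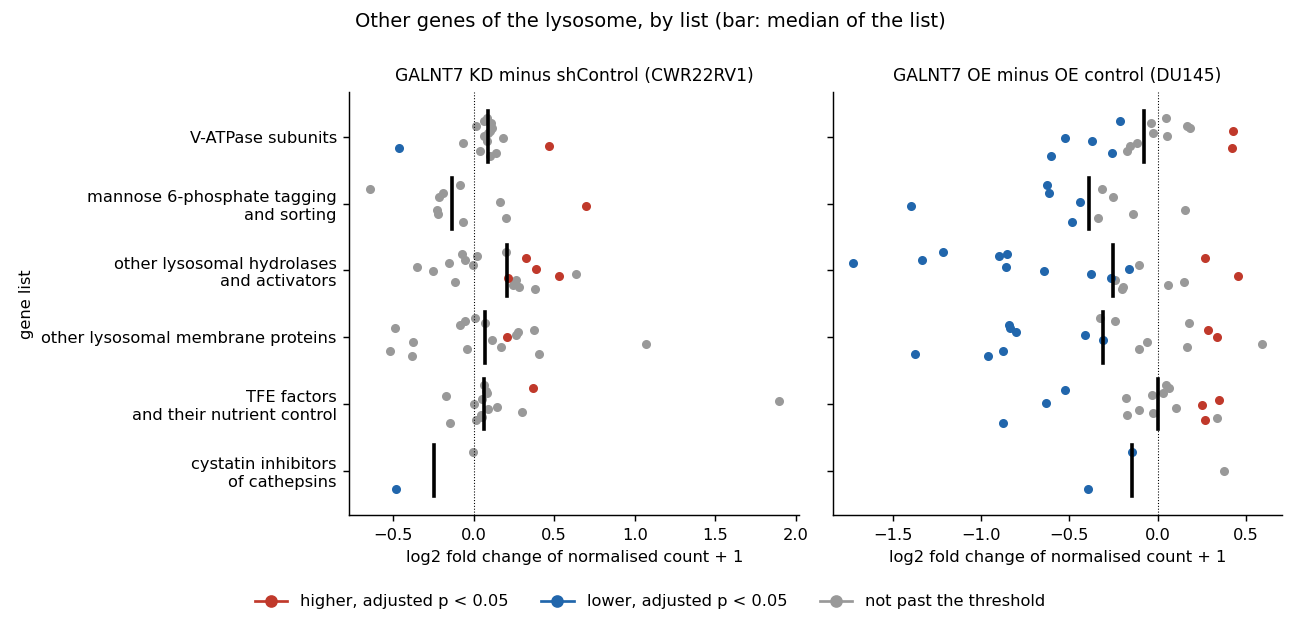
Log2 fold change of each gene (points) in 6 other lists of lysosomal genes, GALNT7 KD left and GALNT7 OE right, with the median of each list as a bar and different horizontal scales. In GALNT7 OE cells 33 of 80 genes are lower and 9 higher, and in GALNT7 KD cells 8 of 78 are higher and 2 lower.

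Other gene lists moved in GALNT7 OE cells beside these falls. All 10 of the G2/M genes rose (median log2 fold change 1.98, summed normalised counts 16336 to 16589 in the OE control and 55557 to 63537 in GALNT7 OE), and 9 of 9 interferon-stimulated genes tested fell (median -1.38). The shares over all genes were 22.9% higher and 20.5% lower. The 8 macrophage markers with a row summed to 120 to 149 normalised counts in the OE control and 36.0 to 93.4 in GALNT7 OE cells, with CD14 and MARCO lower, while PTPRC and CD163 were at 0 to 2.10 in all 6 libraries. Fibroblast markers summed to 305 to 431 and 73.0 to 165, and endothelial markers to 32.7 to 36.3 and 14.0 to 55.6. In GALNT7 KD cells 0 of 10 G2/M genes and 0 of 7 interferon-stimulated genes passed, which is near the background of 9.06% called. Fibroblast markers in CWR22RV1 summed to 296 to 368 in shControl and 715 to 800 in GALNT7 KD cells, with LUM higher, and macrophage markers summed to 19.3 at most. The part of these lists in the lysosomal changes was not tested.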

How the data were processed

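RNA of 12 libraries was analysed, 3 per group, each labelled as a biological replicate, and whether these were separate cultures is not said, so p-values measure the spread between them. The libraries were made with a stranded mRNA kit. The deposited signal is a normalised count per gene, in which the authors divided reads by a size factor per library, in 1 table per cell line. The submitters' processing notes name FastQC, Salmon, DESeq2, R 3.5.3 and hg38, and the annotation release is not given in the sources used here. Dividing each value by what 1 read is worth gave whole reads (within 0.001) for 100% of values. In DU145 this was not used for count tests, because in 2 libraries 1 read is worth almost exactly 1 and the step could not be checked apart from it.

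Genes were named, and exon lengths taken, from GENCODE release 29 (94.4% of 59424 identifiers). The 44 genes and all lists were chosen with earlier results of these data known. limma 3.58.1 in R 4.3.3 (lmFit, eBayes with trend) was run on log2(normalised count + 1), two-sided, for genes with a mean of at least 5 over the 6 libraries of a line, without a replicate block. All 44 genes could be named, with values per library for those past the threshold in both comparisons and for up to 3 with the largest change per group and comparison. Of the other lists, genes past it in both comparisons and the largest change per comparison were named. Some results that this rule covers are not reported here. On simulated counts limma recovered 198 of 200 changed genes with 13 false calls among 17703 (GALNT7 KD design), and 200 of 200 with 12 among 18515 (GALNT7 OE design). The simulation gave all genes 1 fixed spread, not estimated from these libraries, and placed the changes in genes with higher counts. Its figures therefore do not give the error rates in these data. Recovery of changes as small as those called among the 44 genes in GALNT7 KD cells was not tested. Replicates differed by more than sampling noise (mean chi-square per gene 9.44 to 26.0). Alternatives were other pseudocounts and filters, 75th percentile and quantile scaling, a replicate block, eBayes without trend, each library left out, and, in CWR22RV1, edgeR 4.0.16 and DESeq2 1.42.0 on recovered reads.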

Additional observations from a re-analysis of the deposited data

How the results depend on the processing

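The numbers of genes called in GALNT7 OE cells (32 lower and 4 higher) stayed within 1.5 times under all 15 alternatives, and no call of a lysosomal gene changed direction in either line. In GALNT7 KD cells the 9 higher genes became 5 with eBayes without a trend. With DESeq2 11 were higher, and the 0 lower became 1. The cause of these shifts was not tested. With 1 library left out the higher count in GALNT7 KD cells ranged from 3 to 10, and a fit of 5 libraries has less power by construction. The replicate numbers shared by the groups did not pair the CWR22RV1 libraries (correlations of deviations -0.011, 0.075 and -0.0057, with 2 of 6 libraries closest to their own number). In DU145 the correlations were small but all positive (0.043, 0.043 and 0.016). There 6 of 6 libraries were closest to their own number, so a weak pairing is possible in that line. With the replicate block 7 genes were higher and 0 lower in GALNT7 KD cells, and 5 were higher and 32 lower in GALNT7 OE cells. In GALNT7 KD cells CTSC, CTSZ and LIPA lost their calls (adjusted p of 0.054, 0.053 and 0.06) and MAN2B1 gained one (0.047). In GALNT7 OE cells ARSB gained a call as higher (adjusted p=0.021).

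Median log2 fold changes moved as follows. In GALNT7 KD cells rescaling to the 75th percentile gave -0.021 for proteases, -0.037 for glycosidases, 0.15 for lipid handling and 0.11 for membrane proteins, quantile normalisation gave 0.16 for membrane proteins, and a minimum mean of 20 gave 0.11 for proteases. Relative to the median of all genes, the first 2 were 0.07 and 0.06 above it with that rescaling. Leaving out 1 library gave 0.029 to 0.13 for proteases, -0.021 to 0.11 for glycosidases, 0.13 to 0.31 for sulfatases and other hydrolases, 0.17 to 0.27 for lipid handling and 0.13 to 0.26 for membrane proteins. In GALNT7 OE cells rescaling to the 75th percentile gave -1.11 for proteases, -0.78 for glycosidases, -0.91 for sulfatases and other hydrolases, -0.66 for lipid handling and -0.42 for membrane proteins. Quantile normalisation gave -1.05, -0.74 and -0.87 for the first 3 of these. Leaving out 1 library gave -1.01 to -0.94 for proteases and -0.80 to -0.69 for sulfatases and other hydrolases. Depth limits CTSS and CTSK most, the members with the fewest reads. Groups of 3 are too small for a test of outlying libraries.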
